A study of Mus musculus with 8 samples.

Results

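The genes described here are 34 genes of the interferon response and of MHC class I antigen presentation, taken by symbol from a table of 22691 genes. A total of 9 of them serve class I presentation (H2-K1, H2-D1, B2m, Tap1, Tap2, Tapbp, Psmb8, Psmb9 and Nlrc5), and the other 25 are transcription factors, RNA sensors, and effectors or regulators of the interferon response. RNA-seq reads were counted in cell lines of small cell lung cancer (SCLC) that came from primary lung tumors of mice. The labels give the genotype as invCAG-Mycl-Luc with Rb1-/-, and the strain as FVB/n and 129/Ola. All 8 libraries share these alleles, so no library came from normal lung or from cells with Rb1.

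Each of 4 cultures gave an empty vector library and a library with overexpressed Nfib, one of the nuclear factor I transcription factors. Cultures are called here by the replicate number of the labels: culture 1 is Lmyc1 old, culture 2 is Lmyc3 old, culture 3 is Lmyc3 new and culture 4 is Lmyc5 new. The labels do not explain old and new. Nothing says that libraries came from separately grown cultures, so a p-value here reflects only how these samples spread, which may be technical. Libraries held 21815264 to 29934021 counts in all, and levels are given as CPM (counts-per-million). A count of 0 allows a level of up to 3 counts, which is 0.1002 to 0.138 CPM and covers counting error only.

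Type I interferons bind a receptor whose kinases activate a complex that holds STAT2 and IRF9 and binds interferon-stimulated response elements (ISRE) in the promoters of target genes. Interferon gamma acts in part through IRF1 and, with the class I transactivator NLRC5, raises the genes that cut peptides (the immunoproteasome), carry them into the endoplasmic reticulum (TAP1 and TAP2) and load them (tapasin) on class I heavy chains bound to B2M. Neuroendocrine SCLC is known for low class I expression, while many cells keep some class I without interferon through enhancer and promoter elements bound by RFX, CREB, NF-Y and NF-kappa B.

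Promoters of 3 class I genes and of Isg15, a classical interferon target, are shown because they set the 2 groups of genes side by side. Each is the 250 bases before the start of transcription in RefSeq (GRCm38.p6), read 5' to 3' on the gene's strand: H2-K1 at chr17:34000334-34000583 (minus strand), H2-D1 at chr17:35262844-35263093 (plus strand), B2m at chr2:122147437-122147686 (plus strand) and Isg15 at chr4:156200819-156201068 (minus strand). Capitals mark matches of the following letters on either strand. GAAANNGAA is an ISRE core trimmed by its last base. GAANNGAAA is a related form with an A fewer in its first repeat, so it is not a trimmed core. The others are TGACGC (the core of the X2 box), CCAAT, GGGATTCCC (the inner letters of a kappa B site) and TTCNNNGAA (a GAS element).
H2-K1: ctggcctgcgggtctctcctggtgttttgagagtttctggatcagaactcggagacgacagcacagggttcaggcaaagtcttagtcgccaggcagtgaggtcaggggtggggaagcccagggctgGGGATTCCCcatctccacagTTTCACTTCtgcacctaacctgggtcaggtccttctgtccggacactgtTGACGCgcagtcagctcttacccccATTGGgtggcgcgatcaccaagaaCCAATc
H2-D1: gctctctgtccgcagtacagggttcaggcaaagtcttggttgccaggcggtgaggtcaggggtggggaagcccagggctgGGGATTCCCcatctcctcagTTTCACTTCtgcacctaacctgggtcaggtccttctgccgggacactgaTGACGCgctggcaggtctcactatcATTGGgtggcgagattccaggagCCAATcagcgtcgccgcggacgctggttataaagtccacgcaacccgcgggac
B2m: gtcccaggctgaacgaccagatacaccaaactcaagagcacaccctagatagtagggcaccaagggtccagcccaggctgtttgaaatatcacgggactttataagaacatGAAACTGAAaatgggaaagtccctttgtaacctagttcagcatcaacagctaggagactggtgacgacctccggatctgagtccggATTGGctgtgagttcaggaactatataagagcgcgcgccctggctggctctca
Isg15: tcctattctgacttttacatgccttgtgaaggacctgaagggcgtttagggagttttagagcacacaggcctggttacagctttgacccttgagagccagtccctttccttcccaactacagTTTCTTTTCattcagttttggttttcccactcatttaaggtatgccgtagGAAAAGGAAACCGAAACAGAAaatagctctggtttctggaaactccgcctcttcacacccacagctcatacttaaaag

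The H2-K1 and H2-D1 promoters held the kappa B letters, GAANNGAAA, the X2 core and a pair of CCAAT matches in the same order, and shared an unbroken run of 47 bases. The B2m promoter held GAAANNGAA and CCAAT, 1 match each, and that of Isg15 held 3 overlapping matches of GAAANNGAA, 1 of GAANNGAAA and no CCAAT. Of the 34 genes, 27 had a promoter in the RefSeq table. GAAANNGAA lay in 1 of 7 matched class I presentation genes (B2m) and 12 of 20 other interferon genes, against 8.18% of all 27025 genes with a promoter. GAANNGAAA lay in 2 of 7 (H2-K1 and H2-D1) and 5 of 20, against 7.3%, so which genes match depends on the form searched. CCAAT lay in 6 of 7 and 8 of 20, against 37.5% of all, and the X2 core in 2 of 7 and 1 of 20, against 6.93%. GAS letters lay in 1 of 7 and 4 of 20, against 8.13%. The kappa B letters lay in 2 of 7 (H2-K1 and H2-D1) and 1 of 20 (Irf1), against 0.352%. A match describes letters and is not a bound site, and the motifs were chosen with these results known.

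The measured genes followed the cultures. In culture 2 nearly the whole class I presentation group was low in both arms. In culture 3 it was high, and culture 4 lay between cultures 2 and 3 for most genes. Culture 1 was high along with culture 3 for H2-K1, H2-D1, B2m and Tapbp, but lower than culture 3 for Tap1, Tap2, Psmb8 and Psmb9. Cultures 2 and 3 both carry the line name Lmyc3. For Nfib against empty vector the edgeR test called 0 members and also 0% of all genes, so this 0 is not particular to the members. Of the 34 members, 25 passed the filter on low counts and 9 stayed under 1 CPM in all libraries. Of those 25, 15 reached the cutoff in all 8 libraries. The other 10 were under it in some libraries, and a gene that passes only through the cultures where it is high has to differ between cultures.

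Among class I presentation genes, all 9 passed the filter. The 5 at the cutoff in all 8 libraries were H2-K1, H2-D1, B2m, Tap2 and Tapbp. Tap1, Psmb8, Psmb9 and Nlrc5 were under it in some libraries. H2-K1 and H2-D1 encode the classical class I heavy chains (K and D), which hold the peptide. H2-K1 (chromosome 17, 33996017 to 34000333, GRCm38) stood with empty vector at 174 CPM in culture 1, 20.7 in culture 2, 162 in culture 3 and 52.4 in culture 4, and with Nfib at 131, 6.29, 166 and 65.5 CPM. H2-D1 (chromosome 17, 35262730 to 35267499) stood with empty vector at 135, 12.7, 197 and 42.5 CPM in cultures 1 to 4, and with Nfib at 116, 8.87, 157 and 56.4 CPM. For both genes the 2 libraries of culture 2 lay below all others, those of culture 4 next, and those of cultures 1 and 3 above them without overlap.

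B2m, the light chain that every class I molecule needs (chromosome 2, 122147686 to 122153083), had another order. With empty vector it stood at 40.6, 7.94, 29.9 and 7.89 CPM in cultures 1 to 4, and with Nfib at 27.9, 7.90, 27.1 and 9.94 CPM. Culture 4 lay near culture 2 for B2m, and the log2 difference of 0.18 ± 0.22 between them did not pass (SE, edgeR, adjusted p = 0.533). By contrast, H2-K1 was 4.68-fold and H2-D1 4.65-fold higher in culture 4 than in culture 2 (edgeR, adjusted p = 0.0117 and 0.00117).

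The peptide transporter genes lie close together on chromosome 17, Tap1 at 34187553 to 34197225 and Tap2 at 34203527 to 34216321. Psmb8 lies between them, at 34197721 to 34201454. Tap1 stood with empty vector at 8.03, 0.567, 13.2 and 6.13 CPM in cultures 1 to 4, and with Nfib at 5.48, 0.276, 13.5 and 6.27 CPM. Tap2 stood with empty vector at 7.42, 0.614, 28.8 and 12.1 CPM, and with Nfib at 6.66, 0.551, 29.96 and 14.6 CPM. Culture 2 was lowest in both arms for both genes, with 12 and 6 reads of Tap1 and 13 and 12 of Tap2 in its 2 libraries, and culture 3 was highest. Tapbp, the gene of tapasin, ranged from 13.2 to 16.7 CPM in culture 2 and from 20.9 to 73.8 CPM in the other libraries.

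Psmb8 and Psmb9 encode catalytic subunits that replace constitutive ones in the immunoproteasome. Psmb8 stood with empty vector at 3.49, 0.661, 11.0 and 3.56 CPM in cultures 1 to 4, and with Nfib at 2.83, 0.184, 14.7 and 5.38 CPM. Psmb9 stood with empty vector at 2.27, 0.236, 6.60 and 1.13 CPM, and with Nfib at 1.78, 0.0919, 5.99 and 1.56 CPM. Culture 3 lay above and culture 2 below all other libraries for both, and culture 2 rested on 14 and 4 reads of Psmb8 and 5 and 2 of Psmb9. The constitutive subunits went the other way: Psmb5, Psmb6 and Psmb7 were 1.30-fold, 1.57-fold and 1.60-fold lower in culture 3 than in culture 2 (edgeR, adjusted p = 0.00966, 0.00199 and 0.00283). Per kilobase of exon, the mean level over the 8 libraries was 91.1 CPM for Psmb6 and 90.6 for Psmb5, and 1.55 for Psmb8 and 0.67 for Psmb9. On the same scale H2-D1 was at 35.1, H2-K1 at 33.1 and B2m at 23.2 CPM per kilobase, Tap2 at 3.33 and Tap1 at 1.22. Nlrc5 was the lowest, at 0.094 CPM per kilobase and 0.184 to 1.17 CPM per library, and was 1 of 2 tested members that did not pass the F test between cultures (edgeR, adjusted p = 0.373).

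**Figure D1:**
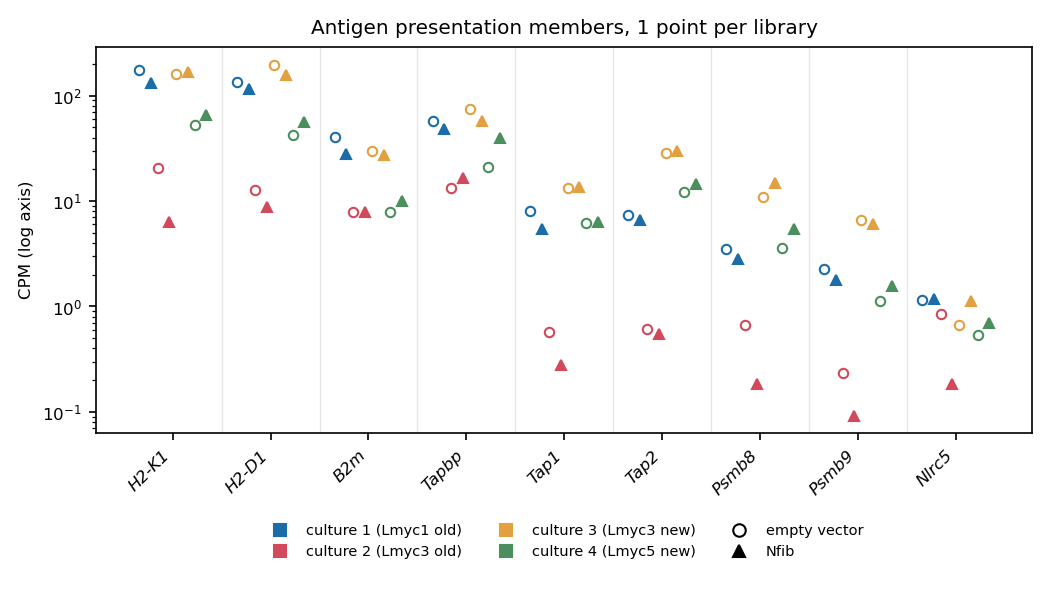
Expression (CPM, log axis) of the 9 class I presentation genes in each of the 8 libraries, 1 point per library, coloured by culture and shaped by arm. Apart from Nlrc5, culture 2 points lie lowest or, for B2m, level with culture 4, and H2-K1 spans 6.29 to 174 CPM.

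The F test over the 4 cultures used the 2 arms of each culture as its 2 libraries, with the arm as a term, so it speaks of these 4 cultures only. It called 8 of the 9 class I presentation genes and 23 of the 25 tested members (adjusted p under 0.05), against 76.7% of all 13380 genes tested. Over all 25 tested members, culture 2 differed from culture 1 for 20 (2 higher and 18 lower, against 48.4% of genes in either direction), culture 3 from culture 1 for 9 (8 and 1, 38.4%) and culture 4 from culture 1 for 12 (2 and 10, 46.6%). Culture 3 differed from culture 2 for 20 members (19 higher and 1 lower, 59.9%), culture 4 from culture 2 for 13 (12 and 1, 50.2%) and culture 4 from culture 3 for 16 (0 and 16, 45.7%). These cultures differed for most genes, and a call alone says little about the members. Of the 15 members at the cutoff in all libraries it called 14, against 75.6% of such genes. Without culture 2 the calls of Stat2, Irf9, Irf7, Usp18, Oasl1 and Tapbp were lost (edgeR, adjusted p from 0.0716 to 0.921), while those of H2-K1, H2-D1, B2m, Tap1, Tap2, Psmb8 and Psmb9 passed (0.00126 to 0.0134).

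Culture 3 against culture 2, both Lmyc3, gave the widest gap. In culture 3, 8 class I presentation genes were higher and 0 lower, against 30.4% of genes higher and 29.5% lower over the table. The 8 include Tap1, Psmb8 and Psmb9, which were under the count cutoff in some libraries, so the filter favoured a difference for them. All 5 genes at the cutoff in all 8 libraries were among the higher. The median log2 difference was 4.04 over the 9 genes and -0.01 over all genes tested. Tap2 was higher by 5.64 ± 0.21 on the log2 scale (SE, edgeR, adjusted p = 6.53e-05). H2-D1 was 16.4-fold higher (log2 difference 4.04 ± 0.24, edgeR, adjusted p = 0.000157) and H2-K1 12.9-fold higher (3.68 ± 0.49, edgeR, adjusted p = 0.00172). Psmb9, Tap1 and Psmb8 were 37.5-fold, 31.8-fold and 30.2-fold higher, and Tapbp and B2m 4.47-fold and 3.59-fold higher. How far these ratios differ between genes was not tested.

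Against culture 1, culture 2 was lower for 8 class I presentation genes and higher for 0, with a median of -3.55 (all genes 0.01, with 24.7% lower and 23.7% higher). Against culture 4, culture 2 was lower for 7 of the 9, while 25.3% of genes were higher and 24.9% lower in culture 4, and the median of culture 4 minus culture 2 was 2.23 (all genes 0.01). Both counts include Tap1, Psmb8 and Psmb9, which were under the count cutoff in some libraries. Culture 3 was higher than culture 1 for 4 genes (Psmb8, Psmb9, Tap1 and Tap2), against 18.7% of genes higher and 19.7% lower, while H2-K1, H2-D1, B2m, Tapbp and Nlrc5 did not pass. For H2-K1 the log2 difference of culture 3 minus culture 1 was 0.13 ± 0.42 and for B2m it was -0.26 ± 0.21 (SE, edgeR, adjusted p = 0.827 and 0.365). Culture 4 was lower than culture 3 for 8 of the 9 (all genes 22.9% lower and 22.9% higher), with a median of -1.46. Culture 4 was lower than culture 1 for B2m and H2-D1 and higher for Tap2, against 23.2% and 23.5% of genes. Tap2 was 1.89-fold higher in culture 4 than in culture 1 while B2m was 3.81-fold lower (edgeR, adjusted p = 0.007 and 0.00167).

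**Figure D2:**
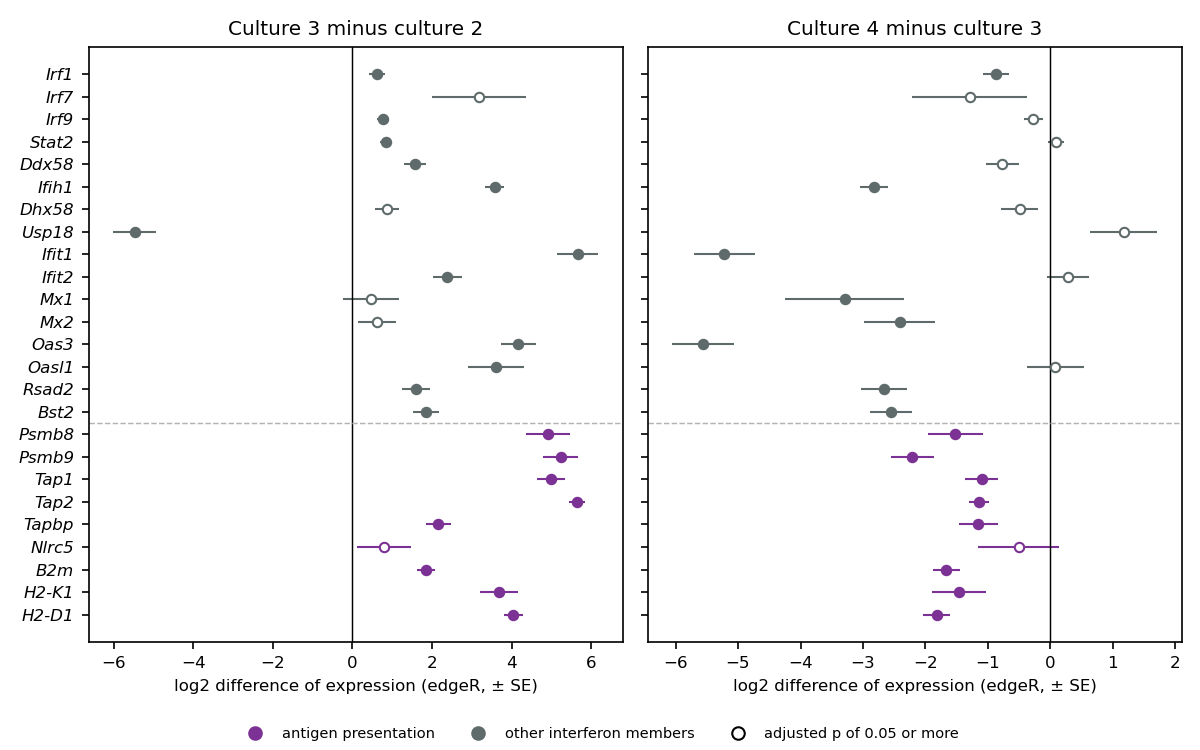
Log2 difference of expression (edgeR, ± SE) of the 25 tested members in culture 3 minus culture 2 and in culture 4 minus culture 3, with open points where the adjusted p was 0.05 or more. Usp18 at -5.47 is the 1 member called lower in culture 3 than in culture 2, and the axes of the panels differ.

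A total of 7 class I presentation genes lie in the MHC on chromosome 17, between 33915899 (Tapbp) and 35267499 (H2-D1). In the same interval 87 genes on no list were counted, 48 of them tested. For culture 3 minus culture 2 the 7 members had a median log2 difference of 4.92 (2.16 to 5.64), and the 48 neighbours one of 0.05, with 17 higher and 10 lower. The members Tap1, Psmb8 and Psmb9 were under the count cutoff in some libraries. The members at the cutoff in all 8 libraries were Tapbp at 2.16, H2-K1 at 3.68, H2-D1 at 4.04 and Tap2 at 5.64. For culture 2 minus culture 1 the medians were -3.55 and -0.02, with all 7 members lower and 9 of the 48 neighbours lower and 9 higher. Prrt1, with a log2 difference of 9.86 in culture 3 minus culture 2, is a neighbour whose difference exceeded that of every member, and was picked out after its value was seen. B2m lies outside the interval, on chromosome 2, and Nlrc5 on chromosome 8.

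**Figure D3:**
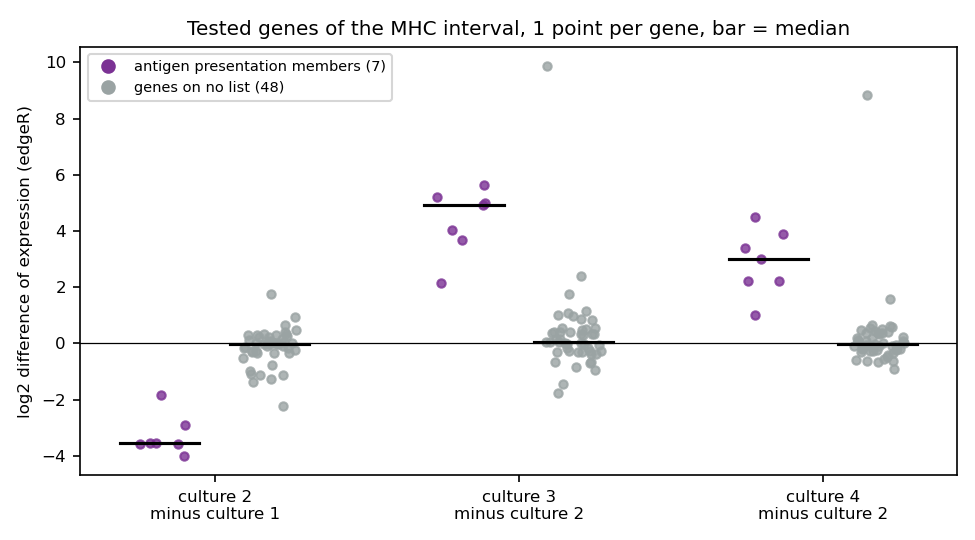
Log2 difference of expression (edgeR) for the tested genes of the MHC interval in 3 contrasts of cultures, 1 point per gene (spread sideways at random) with a bar at the median, for the 7 members and the 48 genes on no list. In culture 3 minus culture 2 the members lie between 2.16 and 5.64, and the neighbours have a median of 0.05 with Prrt1 at 9.86.

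The 4 transcription factors were called in the F test, which called 76.7% of all genes, but Irf1, Irf7 and Irf9 in only 6 of 12 fits that left out a library or culture. Stat2, a subunit of the complex that type I interferons activate, stood with empty vector at 27.3, 15.1, 25.8 and 26.1 CPM in cultures 1 to 4, and with Nfib at 24.8, 10.6, 19.9 and 22.3 CPM. Irf9, the DNA-binding subunit of that complex, stood with empty vector at 18.1, 11.3, 18.2 and 15.1 CPM, and with Nfib at 15.1, 11.0, 19.9 and 16.4 CPM. Both were lowest in culture 2 in each arm, with culture 3 higher by 1.78-fold for Stat2 and 1.70-fold for Irf9 (edgeR, adjusted p = 0.00345 and 0.00729). Irf1, which acts downstream of interferon gamma, ranged from 7.29 to 15.1 CPM. It was called 1.53-fold higher in culture 3 than in culture 2 (edgeR, adjusted p = 0.0455), but in only 1 of 8 fits that left out a library. Irf7, which amplifies type I interferon production, was at 0 to 0.138 CPM in culture 2 and reached 2.03 CPM in culture 1. Being under the count cutoff in some libraries, Irf7 was favoured by the filter to differ.

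Of the RNA sensors, Ifih1 (MDA5, which binds long double-stranded RNA) stood with empty vector at 14.9, 2.79, 28.3 and 3.47 CPM in cultures 1 to 4, and with Nfib at 13.5, 1.84, 26.5 and 4.21 CPM. Ddx58 (RIG-I, which binds short RNA with a 5' triphosphate) stood with empty vector at 5.42, 1.18, 4.001 and 1.89 CPM, and with Nfib at 3.61, 1.01, 2.59 and 1.87 CPM. Both were lower in cultures 2 and 4 than in cultures 1 and 3 in each arm. Ifih1 was 11.9-fold and Ddx58 2.96-fold higher in culture 3 than in culture 2 (edgeR, adjusted p = 0.000216 and 0.0048). Dhx58 (LGP2, a regulator of both) ranged from 0.873 to 2.16 CPM and did not pass the F test (edgeR, adjusted p = 0.131).

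The effectors did not share an order. Usp18, a protease that removes ISG15 and dampens the type I receptor, stood with empty vector at 2.85, 94.6, 2.52 and 2.89 CPM in cultures 1 to 4, and with Nfib at 2.79, 46.4, 0.647 and 3.70 CPM. It was the one tested member higher in culture 2 than in culture 3, by 44.4-fold (edgeR, adjusted p = 0.000646). Ifit2, which binds viral RNA and restrains translation, stood with empty vector at 0.508, 4.49, 40.7 and 46.8 CPM, and with Nfib at 0.696, 10.2, 33.3 and 43.7 CPM. Ifit2 was lowest in culture 1, where H2-K1 was high, and highest in both cultures called new.

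Ifit1, which binds viral RNA by its cap, stood with empty vector at 5.66, 0.0945, 6.002 and 0.0901 CPM in cultures 1 to 4, and with Nfib at 2.39, 0.0919, 3.97 and 0.156 CPM. Culture 4 thus had 2 and 4 reads of Ifit1, near the limit of counting, beside 46.8 and 43.7 CPM of Ifit2. Oas3, which makes the oligoadenylates that activate RNase L, stood with empty vector at 0.881, 1.09, 17.7 and 0.361 CPM, and with Nfib at 1.39, 0.505, 11.0 and 0.234 CPM. Bst2 (tetherin), which holds virus particles at the membrane, stood with empty vector at 1.66, 1.84, 8.11 and 1.17 CPM, and with Nfib at 1.26, 3.03, 9.18 and 1.79 CPM. Oas3 and Bst2 were higher in culture 3 than in any other library, by 4.17 ± 0.45 and 1.85 ± 0.32 on the log2 scale against culture 2 (SE, edgeR, adjusted p = 0.00085 and 0.00445). Among the tested effectors, Oas3, Ifit1, Mx1, Mx2 and Oasl1 were under the count cutoff in some libraries, so the filter favoured a difference for them.

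Rsad2 (viperin) ranged from 1.40 to 11.2 CPM and was lowest in culture 4. Mx1 and Mx2, dynamin-like GTPases that block viruses, were highest in culture 1, at 2.002 to 3.66 and 1.26 to 1.90 CPM, and at 0 to 0.156 and 0.0779 to 0.135 CPM in culture 4. Oasl1, which restrains Irf7 translation, was at 1 read in each library of culture 2 and reached 1.04 CPM. The other 9 effectors were not tested: Isg15 (a ubiquitin-like modifier), Ifit3, Oas1a, Oas2, Oasl2, Ifi44, Gbp2, Gbp3 and Cxcl10, a chemokine that draws T cells. Isg15 ranged from 0.0451 to 0.862 CPM, Cxcl10 from 0 to 0.614 and Gbp3 from 0 to 0.827 CPM. Low levels of Ifit3 and Oas1a are uncertain, since 51.2% and 57.6% of the 50-base stretches of their transcripts also occur in Ifit3b and Oas1g.

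**Figure D4:**
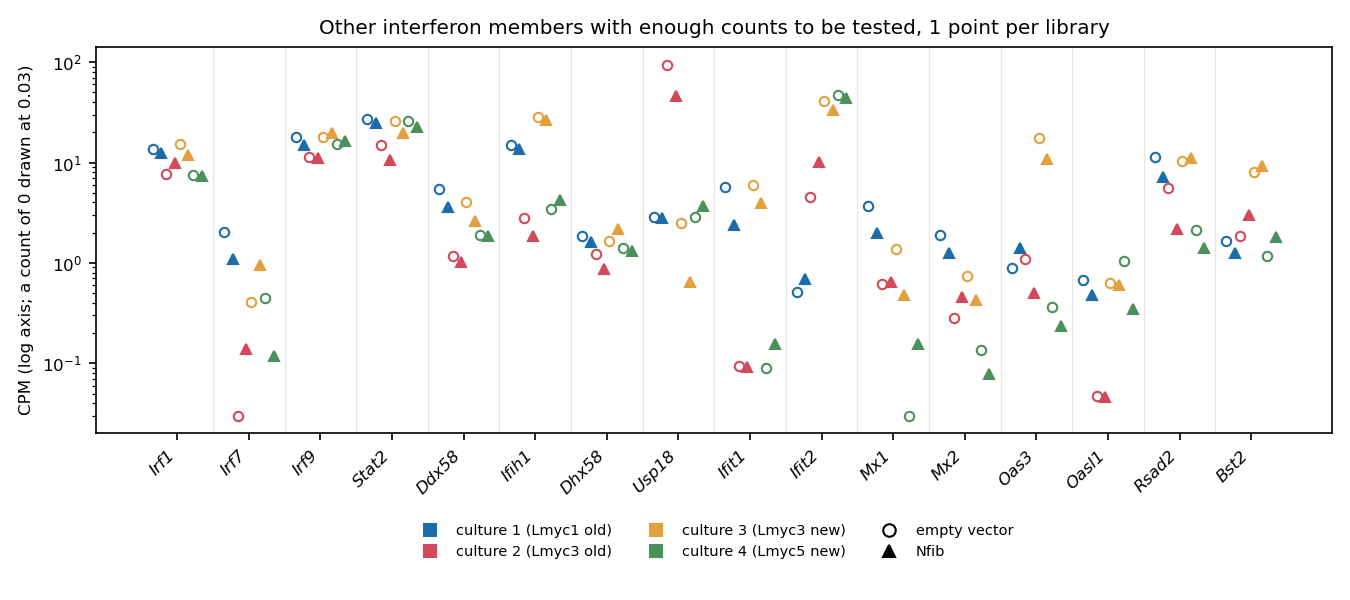
Expression (CPM, log axis, with a count of 0 drawn at 0.03) of the 16 tested interferon members outside class I presentation in each of the 8 libraries, 1 point per library, coloured by culture and shaped by arm. Usp18 reaches 94.6 CPM in culture 2, whereas Ifit2 is high in cultures 3 and 4.

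Summed over the 9 class I presentation genes, expression with empty vector was 429, 57.5, 522 and 147 CPM in cultures 1 to 4, and with Nfib 341, 41.0, 473 and 200 CPM. The sum of the other 25 members with empty vector was 113, 149, 183 and 111 CPM, and with Nfib 92.1, 101, 156 and 106 CPM. Class I presentation outweighed the rest by 3.79, 2.86 and 1.32 in cultures 1, 3 and 4 with empty vector and made 0.386 of it in culture 2, with 3.70, 3.03, 1.88 and 0.408 with Nfib. Of the second sum, Usp18 and Ifit2 made 66.4% in culture 2 and 2.96% in culture 1 (empty vector). With those 2 genes left out, a choice made after seeing the data, the log2 ratio in culture 2 was 0.05 in place of -1.33. Without B2m, H2-K1 and H2-D1 it was below 0 in all cultures, between -2.85 and -0.39. These sums weight genes by their abundance and had no test.

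Nfib itself was higher with its vector in each pair, from 71.9 to 1280, 399.6 to 4675, 163 to 2929 and 487 to 3584 CPM, as the vector labels state. For Nfib against empty vector without a block, edgeR called 0 members (0% of all genes, and 0 members against 0.62% of genes at an unadjusted p under 0.05). With the replicate number as a block edgeR also called 0 members (0% of genes), with 1 member at an unadjusted p under 0.05 against 15% of genes. At 0% of genes, neither edgeR fit called even Nfib itself, so their 0 members cannot show a lack of response. DESeq2 with the block called 0 members against 4.06% of genes (1.86% higher and 2.2% lower), with 1 against 13.9% at an unadjusted p under 0.05. That member was Stat2, for which edgeR with the block gave a log2 fold change of -0.31 ± 0.09 (SE, adjusted p = 0.251), with the Nfib library lower in every pair.

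Within pairs, 3 tested members were lower with Nfib in all 4 cultures (Stat2, Ddx58 and Oasl1), and 0 were higher in all 4, against 12.8% of genes in each direction. H2-K1 changed by -0.41, -1.71, 0.04 and 0.32 on the log2 scale in cultures 1 to 4, and H2-D1 by -0.23, -0.51, -0.33 and 0.41. Usp18 changed by -0.03, -1.03, -1.84 and 0.35. The signs of these 3 genes were not shared by the pairs. The median over class I presentation genes was -0.30, -0.86, 0.03 and 0.33 in cultures 1 to 4, and over the other tested members -0.32, -0.03, -0.32 and -0.05. A difference of the Nfib effect between old and new cultures was called for 0 members (0% of genes) by edgeR with the block, with 2 at an unadjusted p under 0.05 (Ifit2 and H2-K1, against 3.03% of genes).

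**Figure D5:**
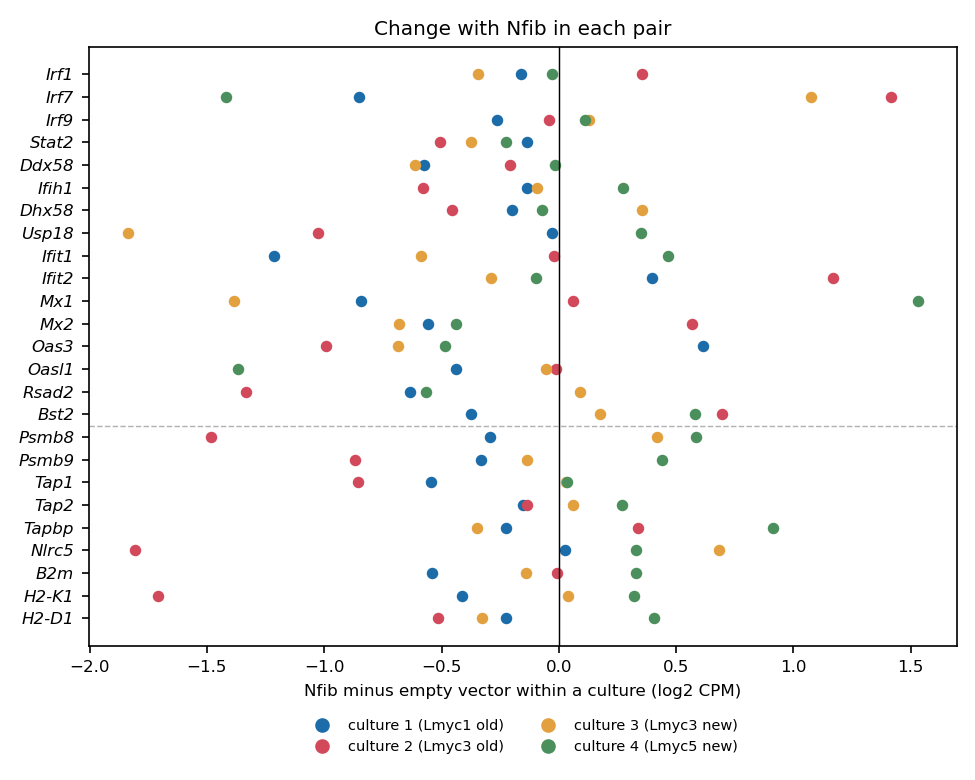
Log2 ratio of Nfib to empty vector within each culture for the 25 tested members, 1 point per pair. Points lie on both sides of 0 for most members, with H2-K1 at -1.71 in culture 2 and 0.32 in culture 4.

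Other genes of the pathway followed by list. Of 9 listed interferon genes 1 was in the table, Ifnl3, with 1 read in all. Of 22 receptor and signalling genes 19 were tested and 13 were called between cultures (68.4%, against 76.7% of all genes), with 7 higher and 1 lower in culture 3 than in culture 2 (against 30.4% and 29.5% of all genes). Jak1 was among the most abundant, at 108 to 373 CPM. Of the receptor chains for type I interferon, Ifnar1 ranged from 46.8 to 62.8 CPM and was called in the F test (edgeR, adjusted p = 0.0371), and Ifnar2 ranged from 4.37 to 7.65 CPM and was not (0.354). Of those for interferon gamma, Ifngr1 ranged from 19.1 to 26.4 CPM and was not called (0.310). Ifngr2 was called (0.00215), at 25.6 to 31.2 CPM in culture 1, 10.8 to 12.4 in culture 2, 15.7 to 20.1 in culture 3 and 5.003 to 7.13 in culture 4. Ptpn6, a phosphatase of JAK signalling, and Ifnlr1, the receptor chain for interferon lambda, were high in cultures 1 and 3, at 22.8 to 29.6 and 7.52 to 9.40 CPM, and at most 2.03 and 0.520 CPM elsewhere. Jak2 stood at 24.99 to 27.0 CPM in culture 2 and 57.7 to 89.3 CPM elsewhere, and Irf2 at 25.6 to 31.98 CPM in cultures 1 and 2 and 54.9 to 61.6 in cultures 3 and 4.

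Of 18 nucleic acid sensing genes, 13 were tested and 7 called (53.8%, against 76.7% of all genes), 5 higher and 1 lower in culture 3 than in culture 2. The most abundant were Trim25, which activates RIG-I (92.9 to 195 CPM), and Adar, which edits double-stranded RNA (77.4 to 122 CPM). Of 43 other interferon-stimulated genes 26 were tested and 22 called (84.6%, against 76.7%), 18 higher and 2 lower (against 30.4% and 29.5%). Ifitm2, a membrane protein that blocks viral entry, stood at 3.63 to 4.11 CPM in culture 2 and 33.6 to 75.3 CPM elsewhere. Of these lists, Nfib calls by DESeq2 with the block fell among the 26 tested other interferon-stimulated genes, 1 higher and 1 lower. Over all genes 4.06% were called, and so few calls do not set this list apart. Cmpk2, a kinase of nucleotide salvage, fell by 0.58 ± 0.17 on the log2 scale (SE, adjusted p = 0.0235) and Lap3, an aminopeptidase, rose by 0.33 ± 0.10 (adjusted p = 0.04), each with that sign in all 4 pairs, and edgeR with the block called neither (adjusted p = 0.214 and 0.208).

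Of 32 other class I genes 24 were tested and 22 called (91.7%, against 76.7% of all genes), 13 higher and 7 lower in culture 3 than in culture 2 (against 30.4% and 29.5%). The chaperones Canx and Pdia3, which fold class I heavy chains, were the most abundant, at 499 to 959 and 379 to 652 CPM. Psme1, a subunit of the PA28 activator that the immunoproteasome uses, stood at 60.4 to 73.5 CPM in culture 2 and at 77.1 to 170.0 elsewhere, and Psme3, of another activator, at 329 to 356 and at 175 to 199.8. Psmb10, the remaining immunoproteasome subunit, was at 3.22 to 6.73 CPM, and its difference between cultures 3 and 2 did not pass (1.15-fold, edgeR, adjusted p = 0.46). Of 11 class II genes 4 were in the table and 1, H2-DMa, was tested, at 0.276 to 1.15 CPM and called higher in culture 3. Ciita, the class II transactivator, was at most 0.273 CPM.

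Markers of other cells moved with the cultures in part. All 11 neuroendocrine markers were present, with sums of 2224 to 5732 CPM, and among them Epcam stood at 200.8 to 590.5 CPM in cultures 1 and 3 and 5.26 to 24.7 in cultures 2 and 4. Of 11 leukocyte markers 4 to 6 were at 0 in each library, and their sum was 41.3 to 58.2 CPM in cultures 1 and 3 and 19.8 to 33.1 in cultures 2 and 4, nearly all of it Coro1a, with Ptprc at 0 in 7 of 8 libraries. Of 13 fibroblast and endothelial markers 4 to 6 were at 0, and the sum was 333 to 651 CPM in cultures 1 and 3 and 48.1 to 79.2 in cultures 2 and 4, nearly all of it Vwf, with Pecam1 at most 0.425 CPM. The lung epithelial sum was 87.7 to 123 CPM, nearly all of it Abca3. The part of these cells in the class I difference was not tested, and in bulk RNA fewer cells of a type and less RNA per cell cannot be told apart.

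Labels were checked by sex-linked genes. Xist was at 1385 to 3910 CPM in cultures 1 and 4 and at most 1.77 CPM in cultures 2 and 3, where Ddx3y was at 68.4 to 168 CPM, so both Lmyc3 cultures fell on one side. Across 13380 genes the empty vector libraries of cultures 2 and 3 correlated at 0.811 (Pearson's r of log2 CPM). This was less than for cultures 1 and 3 (0.887) and cultures 2 and 4 (0.877), and close to cultures 3 and 4 (0.81). Cultures 1 and 2 correlated at 0.839 and cultures 1 and 4 at 0.828, while libraries of a pair correlated at 0.973 to 0.985. Reads of FVB/n and 129/Ola cells were aligned to the C57BL/6 genome, and class I genes are polymorphic. The effect of this on the counts of H2-K1 and H2-D1 was not tested. Of the 50-base stretches of these transcripts 8.79% and 14.3% occur in other genes as well.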

How the data were processed

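The deposited values are whole-number read counts per gene, not normalized by the authors. Per the labels' protocols, the TruSeq RNA kit of Illumina was used. TopHat, TopHat2 2.1, Bowtie 1.0.0, SAMtools 0.1.19 and DESeq2, with build GRCm38 (mm10), are named per the submitters' processing notes. Which program counted the reads, with which annotation and strand setting, is not given in the sources used here. A further allele of the genotype is not reported here.

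Counts were analysed in R 4.3.3. edgeR 4.0.16 (quasi-likelihood test, original form, TMM factors of 0.971 to 1.03, filter on low counts by arm, 13380 genes) tested Nfib against empty vector over the 8 libraries, and the 4 cultures with the arm as a term. p-values were adjusted over all genes tested (Benjamini-Hochberg, 0.05). The SE of edgeR is the log2 difference divided by the square root of its F. CPM use TMM-scaled library sizes, and log2 CPM a prior count of 2.

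Both libraries of a replicate number carry the same line in the labels. Their deviations from the arm means correlated at 0.908, 0.884, 0.935 and 0.929, and no other combination exceeded 0.065, so the number pairs the libraries. The alternatives were the replicate block, DESeq2 1.42.0, limma 3.58.1, other scalings and filters, and left-out cultures or libraries. The tests were also run on simulated data, and what they recovered there is not reported here. Promoter motifs were searched in short forms of their letters, chosen after longer forms had been tried.

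Members and lists were chosen with earlier results of these data known. Printed in every library were the 2 members of highest mean in each role, those called for Nfib and the 12 with the smallest p between cultures. Other genes were named if called for Nfib, among the 8 pathway genes with the smallest p between cultures or the 2 most abundant of a list, with a few added after their values were seen. Some genes that this rule names are not reported here.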

Additional observations from a re-analysis of the deposited data

Results flagged for a closer look

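A value was picked out here when, in a group of 4 values, the highest or lowest lay far from the rest by Dixon's test. For each tested member the groups were the CPM of each arm and the within-pair log2 ratios. Of 75 such groups 6 were picked out, all of them CPM of an arm. Chance alone gives about 1 in 20 where values are normally distributed, which was not checked for these CPM. Usp18 in culture 2 stood above the other libraries of its arm, at 94.56 CPM with empty vector and 46.4 CPM with Nfib. Oas3 in culture 3 stood above them too, at 17.67 CPM with empty vector and 10.95 CPM with Nfib. Bst2 with empty vector was highest in culture 3, at 8.114 CPM. Stat2 with empty vector was lowest in culture 2, at 15.11 CPM. For Usp18 and Oas3 the same culture stood apart in both arms. No cause of these values was tested.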

How the results depend on the processing

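The Nfib test called 0 members in the fit without a block and in all 21 alternatives, among them edgeR and DESeq2 with the replicate block. Of all genes, edgeR called 0% both without and with that block, and DESeq2 with it called 4.06%. Where a fit calls 0% of genes, its 0 says nothing particular to the members. Signs of 2 small changes turned: Ifit2 went from -0.07 to 0.23 with the replicate block in edgeR, 0.26 in DESeq2, 0.12 in the bias-adjusted form and 0.04 with the line as block, and ran from -0.18 (without replicate 2) to 0.07 (without replicate 3), and with the block also to 0.19, 0.48 and 0.41 (without replicates 1, 3 and 4). H2-K1 went from -0.15 to between -0.29 (without replicate 3) and 0.01 (without replicate 1), and with the replicate block to -0.36 in edgeR, -0.42 in DESeq2, and from -0.60 to -0.02 with a replicate left out. With the cutoff in all 8 libraries, 15 members were tested in place of 25, so counts of calls are not on the same scale. The F test called 14 in place of 23 (in the main fit, 76.7% of all genes and 75.6% of those at that cutoff). The contrasts of culture 2 with 1, 3 with 1 and 4 with 3 called 12, 4 and 10 in place of 20, 9 and 16 (48.4%, 38.4% and 45.7% of all genes in the main fit). For the refits with a library or culture left out, shares over all genes are not reported here. Leaving out a library or culture gave 17 to 22 calls in the F test. Leaving out a library gave 4 to 10 for culture 3 against 1 (4 without either library of culture 1 or 3), and 9 to 16 for 4 against 3 (9 without the empty vector library of culture 3 or 4). Without culture 2, Stat2, Usp18, Tapbp, Irf9, Irf7 and Oasl1 lost their F call (adjusted p = 0.307, 0.266, 0.0716, 0.302, 0.0758 and 0.921). Each of the 20 members called in culture 3 minus culture 2 had 12 or 13 refits. Counted over members and refits together, sign and call were kept 244 times. The call was lost 10 times: Irf1 in 7 refits and Irf9, Oasl1 and Rsad2 in 1 each. The log2 ratio of class I presentation to the other members was 1.91, -1.33, 1.56 and 0.66 in cultures 1 to 4. It was -0.49, -2.85, -0.39 and -0.99 without B2m, H2-K1 and H2-D1, and 1.96, 0.05, 1.93 and 1.51 without Usp18 and Ifit2 (added after seeing the data). With members at the cutoff in all 8 libraries it was 2.04 in culture 1 and 1.67 in culture 3. Causes of these shifts were not tested.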

Other observations

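A few listed genes that the filter or the rule for named genes left out had patterns of their own. Ifitm3, a membrane protein that blocks viral entry, stood at 63.0 and 110 CPM in culture 3 (empty vector and Nfib) and at most 0.505 CPM in the other 6 libraries, so that it was not tested. Mb21d1 (cGAS), the sensor of cytosolic DNA, stood at 4.67 and 4.74 CPM in culture 1, 10.5 and 6.11 in culture 2, 39.8 and 44.4 in culture 3 and 40.7 and 36.6 in culture 4, high in both cultures called new, as Ifit2 was. H2-Q4, a nonclassical class I gene, was at 11.9 and 12.9 CPM in culture 3, 2.98 and 3.23 in culture 4 and at most 0.813 CPM in cultures 1 and 2. Tapbpl, which edits class I peptides, was at 3.22 to 3.35 CPM in culture 2 and 9.10 to 26.1 CPM elsewhere. These genes were chosen after their values were seen.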
